A study of Homo sapiens with 27 samples.

Results

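The metallothionein genes of chromosome 16 were followed through 9 populations of 786-O cells, a clear cell renal cell carcinoma (ccRCC) line. The members are the 8 genes *MT1A*, *MT1E*, *MT1F*, *MT1G*, *MT1H*, *MT1M*, *MT1X* and *MT2A*, found by matching the Ensembl identifiers of the count table to these symbols, and they are 8 of 57773 genes counted. Metallothioneins are small, cysteine-rich proteins whose sulphur atoms bind zinc and copper and also trap cadmium. When free zinc rises, the transcription factor MTF1 binds metal response elements in the promoters of these genes and switches them on, and glucocorticoids and oxidative stress act on them too. *MT2A* is the form that most human cells make in the largest amount, and the kidney tubule, from which ccRCC arises, is a classical site of metallothionein accumulation.

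Bulk RNA-seq had been carried out on 27 libraries, 3 for each population. The sgCtrl population carried a control guide RNA, the single mutant populations carried sgKDM5C #4, sgKDM5C #5, sgKDM5D #2 or sgKDM5D #4, and the 4 double mutant populations carried each combination of a sgKDM5C with a sgKDM5D guide. KDM5C and KDM5D are histone H3 lysine 4 demethylases encoded on the X and the Y chromosome. All 9 populations, sgCtrl included, had been infected with lentiviruses that deliver spCas9 and guides, and no isolation of clones and no metal or hormone treatment is described for them in the sources used here. The design asks how each mutation, alone and combined, moves expression relative to sgCtrl.

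All 8 members encode similar short proteins, which bears on how well reads of one member can be told from another. The coding sequence was 186 bases with 61 residues in 7 members and 189 bases with 62 residues in *MT1G*, and each held 20 cysteine codons. Between members, 88.7% (*MT1F* and *MT1X*) to 94.6% (*MT1A* and *MT1E*) of aligned coding bases were identical. The coding sequences of the 4 members with enough counts for precise values are shown on the coding strand, from the transcripts of GENCODE on GRCh37, with cysteine codons in capitals:
MT2A: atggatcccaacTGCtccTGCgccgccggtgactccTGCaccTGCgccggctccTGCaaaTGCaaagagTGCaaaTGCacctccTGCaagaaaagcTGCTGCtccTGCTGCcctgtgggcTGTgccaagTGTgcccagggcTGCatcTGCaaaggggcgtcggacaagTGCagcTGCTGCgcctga
MT1E: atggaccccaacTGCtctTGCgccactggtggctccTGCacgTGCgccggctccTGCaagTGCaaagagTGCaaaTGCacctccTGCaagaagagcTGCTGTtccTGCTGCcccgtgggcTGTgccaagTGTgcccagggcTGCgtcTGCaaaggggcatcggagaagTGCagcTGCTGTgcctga
MT1X: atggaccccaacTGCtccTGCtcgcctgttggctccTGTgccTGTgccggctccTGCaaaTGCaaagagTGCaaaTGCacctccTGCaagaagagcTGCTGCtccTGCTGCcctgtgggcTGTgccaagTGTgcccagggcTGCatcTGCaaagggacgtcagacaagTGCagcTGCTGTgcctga
MT1F: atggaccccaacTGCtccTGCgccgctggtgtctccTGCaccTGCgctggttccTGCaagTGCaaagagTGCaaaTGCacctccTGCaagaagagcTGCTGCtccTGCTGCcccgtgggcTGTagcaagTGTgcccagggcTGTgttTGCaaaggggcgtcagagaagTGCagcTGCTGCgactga
Cysteine stood at the same 20 codon positions in all 7 members with the common length, and among the 4 sequences shown 29 bases differed, 5 of them within a cysteine codon. Of stretches as long as a read, 0 of the 100-base stretches of the *MT1A*, *MT1E*, *MT1F*, *MT1G*, *MT1M*, *MT1X* and *MT2A* transcripts recurred exactly in another metallothionein gene, and 10 of 722 (1.39%) did so for *MT1H*, all of them in *MT1HL1*. The libraries were read from both ends over 2 × 100 bases. How the counting treated reads with several matches is not given in the sources used here, so small transfers of reads between members cannot be judged from the counts.

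Metal response elements have the core TGCACNC or TGCGCNC, where N is any base. The RefSeq promoter table (GRCh38.p14) held *MT2A*, *MT1X* and *MT1H*, and the 250 bases before their starts are shown because metal response elements in such promoters are the sites that MTF1 binds. Core matches on either strand are in capitals, and a match to the minus strand appears as its reverse complement:
MT2A, chr16:56608334-56608583, plus strand: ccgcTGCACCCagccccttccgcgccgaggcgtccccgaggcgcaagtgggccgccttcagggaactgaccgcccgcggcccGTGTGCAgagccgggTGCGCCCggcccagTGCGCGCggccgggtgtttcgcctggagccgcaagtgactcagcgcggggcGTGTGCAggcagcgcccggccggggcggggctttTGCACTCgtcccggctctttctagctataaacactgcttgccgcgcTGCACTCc
MT1X, chr16:56682220-56682469, plus strand: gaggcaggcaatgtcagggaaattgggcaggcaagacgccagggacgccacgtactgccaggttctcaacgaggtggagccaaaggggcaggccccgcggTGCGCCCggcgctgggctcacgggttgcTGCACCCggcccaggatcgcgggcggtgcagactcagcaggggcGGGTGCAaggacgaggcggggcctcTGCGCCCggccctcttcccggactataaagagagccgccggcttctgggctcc
MT1H, chr16:56669564-56669813, plus strand: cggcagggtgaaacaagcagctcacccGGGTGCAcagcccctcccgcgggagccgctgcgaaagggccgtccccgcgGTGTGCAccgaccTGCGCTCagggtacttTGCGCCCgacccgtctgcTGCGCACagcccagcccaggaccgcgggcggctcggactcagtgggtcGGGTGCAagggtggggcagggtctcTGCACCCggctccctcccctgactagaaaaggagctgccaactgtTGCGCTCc
*MT2A* held 7 core matches, *MT1X* 4 and *MT1H* 8, whereas 24.8% of the 35116 promoters of the table held at least 1 match, 1.58% at least 3 and 0.120% at least 5. The TATA box letters TATAAA, searched on both strands, lay in the windows of *MT2A* and *MT1X*, 1 match each, and in 10.7% of all promoters. *MT1H*, with the most core matches of the 3, had 2 counts over all libraries.

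Libraries held between 20172482 and 43383929 counts (median 26290323). In 4 libraries, sgCtrl replicate 2, sgKDM5C #5 replicate 2, sgKDM5C #4 with sgKDM5D #2 replicate 1 and sgKDM5C #4 with sgKDM5D #4 replicate 3, expression stood apart by a rule that looked at the positive side only. These libraries carried the largest positive values of the first principal component of the residuals, which took 41.0% of the residual variance. On the negative side, sgKDM5C #5 replicate 1 (-0.282) and sgCtrl replicate 1 (-0.271) lay farther out than sgKDM5C #4 with sgKDM5D #4 replicate 3 (0.265). Libraries that were not picked can thus deviate as much. *KDM5C* mRNA fell in all 6 populations with a sgKDM5C guide, with log2 fold changes between -1.91 and -1.51. *KDM5D* mRNA was higher than in sgCtrl in all 8 mutant populations, with log2 fold changes between 0.64 and 1.80, so that the counts gave no check of the populations labelled sgKDM5D, which are named by their guides throughout. Of the kidney and ccRCC markers, 6 of 8 were matched, and their summed level was 2208 to 2720 CPM (counts scaled to library size with TMM factors) over the libraries. The summed levels of fibroblast markers (3.90 to 17.8 CPM), endothelial markers (0.176 to 1.11 CPM) and leukocyte markers (0.0674 to 0.802 CPM) were low, and *CD3E* and *LYZ* had at most 3 counts in any library.

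Of the 8 members, 5 passed the filter of at least 120 counts summed over the 27 libraries, and their levels differed widely. In sgCtrl, *MT2A* (chromosome 16, 56642496 to 56643409 of GRCh37, plus strand) was at 561, 472 and 555 CPM in the 3 libraries. *MT1E* (56659387 to 56661024) was at 177, 146 and 179 CPM. *MT1X* (56716382 to 56718108) was at 7.02, 6.37 and 7.17 CPM and *MT1F* (56691643 to 56694610) at 6.80, 5.96 and 8.48 CPM. *MT1G* (56700642 to 56701977, minus strand) was at 0.520, 0.103 and 0.347 CPM, from 12, 3 and 9 counts. Per kilobase of the principal transcript, the level of *MT2A* in sgCtrl was 1320 CPM, that of *MT1E* 238 CPM, those of *MT1X* and *MT1F* 17.0 and 16.7 CPM, and that of *MT1G* 0.788 CPM. *MT1X* and *MT1F* did not differ beyond their spread in sgCtrl, and the libraries of the other neighbours in this order did not overlap.

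The other 3 members were at or near 0 in every population. *MT1A* (56672578 to 56673999) had 0 counts in all 27 libraries. *MT1M* (56666571 to 56667893) had 1 count, in sgCtrl replicate 2, and *MT1H* (56703726 to 56705041) had 2 counts, 1 in sgKDM5C #4 replicate 1 and 1 in sgKDM5C #5 with sgKDM5D #2 replicate 2. A library with 0 counts allows up to 3 counts, which is 0.0692 to 0.149 CPM at these depths and covers counting error only. All 3 members were under 3 counts in each of the 27 libraries, and no fold change was computed for them.

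**Figure D1:**
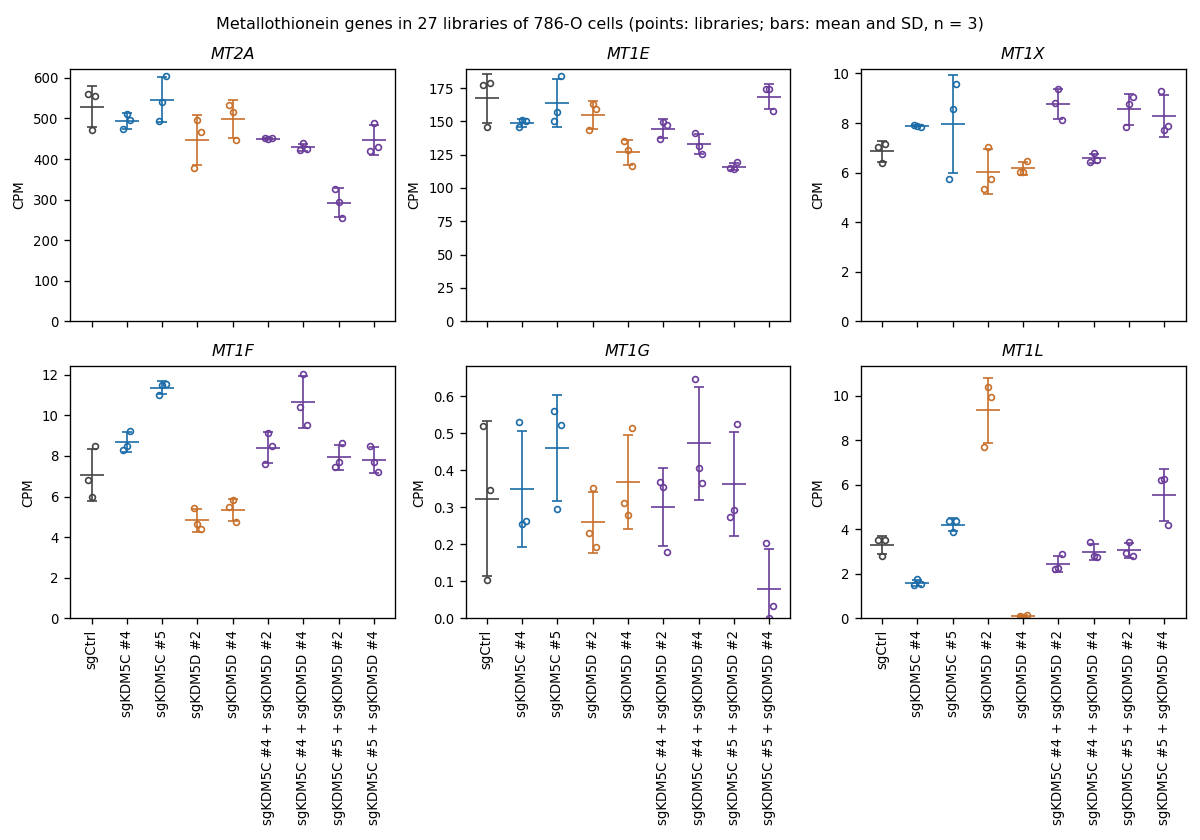
Levels (CPM, linear axis from 0) of the 5 members above the filter and of the neighbouring pseudogene *MT1L* in each of the 27 libraries. Points are libraries and bars are the mean and SD of 3, and *MT2A* in sgKDM5C #5 with sgKDM5D #2 (255 to 327 CPM) lies below the libraries of all other populations (377 to 605 CPM).

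Taken as a family, the 5 members summed to 711 ± 70.0 CPM in sgCtrl (SD, n = 3), of which *MT2A* made up 74.5% and *MT1E* 23.5%. The summed level was 425 CPM in sgKDM5C #5 with sgKDM5D #2 and 579 to 730 CPM in the other 7 mutant populations. The share of *MT2A* among these counts ran from 68.6% in sgKDM5C #5 with sgKDM5D #2 to 78.2% in sgKDM5D #4. *MT2A* was the most abundant member and *MT1E* the next in all 27 libraries. In bulk libraries, fewer cells that express a gene and less of its RNA per cell cannot be told apart.

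Each mutant population was then compared with the same 3 sgCtrl libraries with the quasi-likelihood test of edgeR, Benjamini-Hochberg adjusted across the 17016 genes. Calls required an adjusted p below 0.001 together with more than 1.5-fold between the groups. Among the 5 members and 8 populations, 40 comparisons, 2 were called higher and 1 lower. *MT1F* rose in sgKDM5C #5 and in sgKDM5C #4 with sgKDM5D #4, and *MT2A* fell in sgKDM5C #5 with sgKDM5D #2. Of all genes tested, 3.21% were called higher and 1.77% lower in sgKDM5C #4. The shares were 2.03% and 2.97% in sgKDM5C #5, 1.89% and 1.34% in sgKDM5D #2, and 10.7% and 7.44% in sgKDM5D #4. In the double mutant populations they were 3.83% and 2.23% for sgKDM5C #4 with sgKDM5D #2, 5.86% and 3.24% for sgKDM5C #4 with sgKDM5D #4, 7.92% and 4.77% for sgKDM5C #5 with sgKDM5D #2, and 3.30% and 3.87% for sgKDM5C #5 with sgKDM5D #4. With 5 members a single call is already a larger share than any of these, and the counts are no result about the family. No source used here says that the 3 libraries of a population came from separate cultures, so p-values measure the spread between these libraries, which may be technical. The median log2 fold change of the 5 members lay between -0.24 (sgKDM5D #2) and 0.23 (sgKDM5C #5), and that of all genes between -0.01 and 0.02.

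*MT2A* in the double mutant population sgKDM5C #5 with sgKDM5D #2 gave the clearest change of the family. It was at 327, 295 and 255 CPM, against 561, 472 and 555 CPM in sgCtrl, so that the groups did not overlap. It fell by 0.86 on the log2 scale (SE 0.10, adjusted p = 1.1e-07, edgeR), a 1.81-fold lower level, and this call held in 35 of 35 alternative analyses. In the other 7 mutant populations its log2 fold changes ran from -0.30 to 0.05 and none was called. The lowest of these was in sgKDM5C #4 with sgKDM5D #4, where all libraries (422, 439 and 425 CPM) lay below sgCtrl but the change was under 1.5-fold (adjusted p = 0.016).

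*MT1E*, the other abundant isoform, was called in 0 of 8 populations by edgeR and by DESeq2, with an unadjusted p under 0.05 in 4. Its largest difference was in the same double mutant population, sgKDM5C #5 with sgKDM5D #2, at 115, 114 and 119 CPM against 177, 146 and 179 CPM in sgCtrl. The log2 fold change there was -0.53 (SE 0.08, adjusted p = 9.6e-06), 1.44-fold lower and so short of the fold limit. Without sgCtrl replicate 2, which stood apart, it was -0.60 (adjusted p = 1.2e-06), 1.52-fold lower and called. In sgKDM5D #4 it was at 135, 128 and 117 CPM, with a log2 fold change of -0.40 (SE 0.08, adjusted p = 2.1e-04), and in sgKDM5C #5 with sgKDM5D #4 at 174, 174 and 158 CPM, with a log2 fold change of 0.01. The libraries of the first 2 of these populations lay below all sgCtrl libraries, while those of the last did not.

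*MT1F* showed the widest span of the members with more than 100 counts in each library. It was at 11.0, 11.5 and 11.6 CPM in sgKDM5C #5 and at 10.4, 12.0 and 9.52 CPM in sgKDM5C #4 with sgKDM5D #4, above all sgCtrl libraries (5.96 to 8.48 CPM). The rise was 0.68 on the log2 scale (SE 0.12, adjusted p = 1.2e-04) in the former and 0.59 (SE 0.12, adjusted p = 3.5e-04) in the latter. In sgKDM5D #2 (5.44, 4.63 and 4.40 CPM) and sgKDM5D #4 (5.48, 5.81 and 4.76 CPM) it was below all sgCtrl libraries, at -0.55 (adjusted p = 0.0030) on the log2 scale for guide #2 and -0.40 (adjusted p = 0.012) for guide #4, neither of them called. Without sgCtrl replicate 2 the value for guide #2 was -0.66 (adjusted p = 8.8e-04) and called. In sgKDM5C #4 it was at 8.31, 8.50 and 9.24 CPM, which overlaps sgCtrl. Both calls depended on the control libraries. Without sgCtrl replicate 1 the values became 0.64 (adjusted p = 0.0012) in sgKDM5C #5 and 0.57 (adjusted p = 0.0021) in the double mutant population, without sgCtrl replicate 2, which stood apart, 0.57 (adjusted p = 0.0015) and 0.50 (adjusted p = 0.0029), and without sgKDM5C #4 with sgKDM5D #4 replicate 2 the latter was 0.51 (adjusted p = 0.0030).

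*MT1X* and *MT1G*, isoforms of lower level here, were called in 0 of 8 populations each by edgeR and by DESeq2, with an unadjusted p under 0.05 in 3 and in 1. The highest population mean of *MT1X* was 8.76 ± 0.609 CPM in sgKDM5C #4 with sgKDM5D #2 (log2 fold change 0.36, adjusted p = 0.049), and the lowest 6.04 ± 0.897 CPM in sgKDM5D #2 (-0.18, adjusted p = 0.37). In the 6 populations with a sgKDM5C guide the log2 fold changes of *MT1X* ran from -0.06 (sgKDM5C #4 with sgKDM5D #4) to 0.36, and none was called. *MT1G*, with 0 to 18 counts per library, had its lowest level in sgKDM5C #5 with sgKDM5D #4, from 5, 0 and 1 counts. Its log2 fold change there was -1.91 (SE 0.70, adjusted p = 0.042), and 2 of the 3 libraries were under the 3 counts that a count of 0 allows. In the other 7 populations its 95% intervals reached from -1.37 to 1.54 on the log2 scale, the limit that these few counts set.

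**Figure D2:**
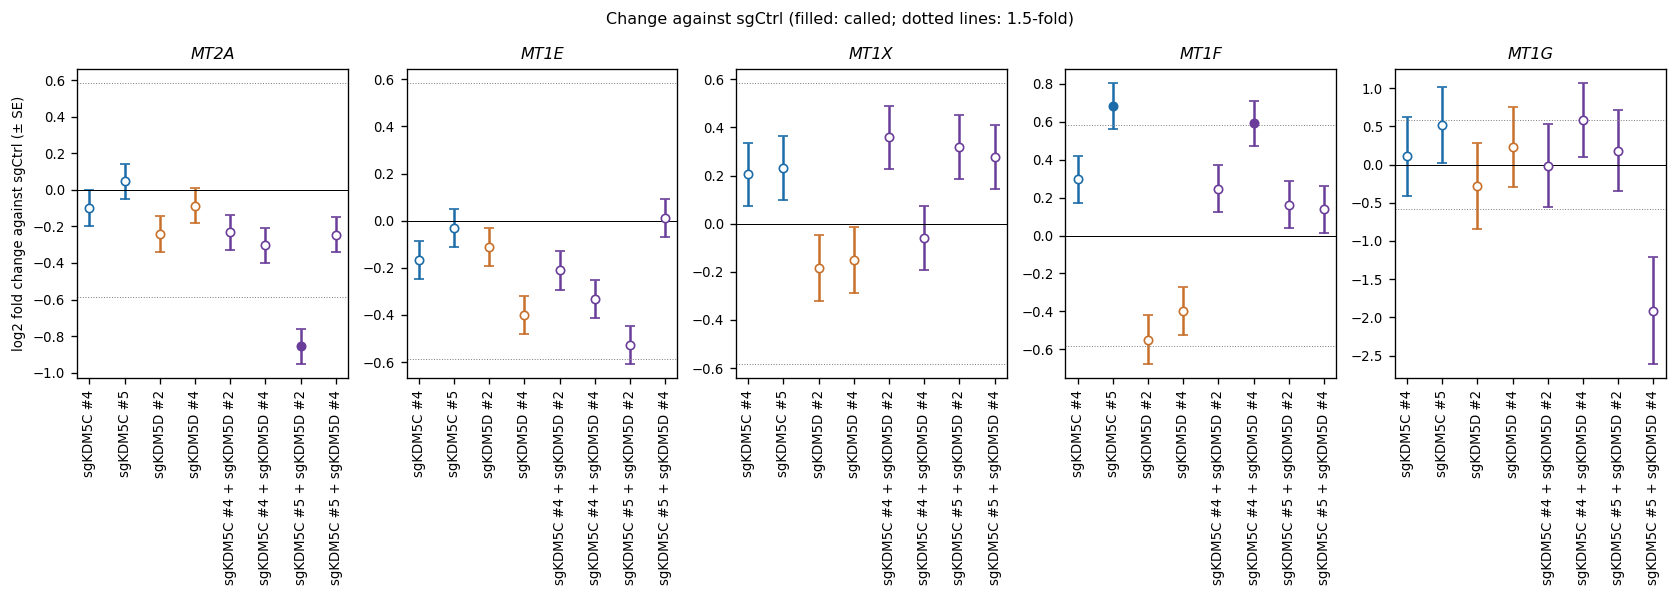
Log2 fold change against sgCtrl with its standard error for the 5 members in the 8 mutant populations, each panel with its own linear axis. Filled points mark the 3 called comparisons, *MT2A* at -0.86 and *MT1F* at 0.68 and 0.59, and dotted lines mark 1.5-fold.

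The second guide in a double mutant population was assessed against the single mutant population that carries the first. Against the sgKDM5C population, 1 of 20 member comparisons was called, the fall of *MT2A* in sgKDM5C #5 with sgKDM5D #2. Its libraries at 327, 295 and 255 CPM compared with 495, 540 and 605 CPM in sgKDM5C #5, and the log2 fold change was -0.90 (SE 0.10, adjusted p = 1.1e-07). *MT1E* (-0.50, adjusted p = 3.2e-05) and *MT1F* (-0.52, adjusted p = 0.0012) had lower levels in this comparison within the fold limit and were not called. *MT1G* in sgKDM5C #5 with sgKDM5D #4, at 5, 0 and 1 counts against 12, 10 and 17 in sgKDM5C #5, had a log2 difference of -2.44 (SE 0.65, adjusted p = 0.020). The background of genes called in either direction was 0.264% for sgKDM5C #4 with sgKDM5D #2, 3.57% for sgKDM5C #4 with sgKDM5D #4, 8.56% for sgKDM5C #5 with sgKDM5D #2 and 1.26% for sgKDM5C #5 with sgKDM5D #4.

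Against the population labelled with the matching sgKDM5D guide, 4 of 20 member comparisons were called, and 3 of these were *MT1F*. Of all genes, 7.10% to 23.0% were called in either direction in these contrasts, so the count is no result about the family. It was higher in sgKDM5C #4 with sgKDM5D #2 (7.59, 9.11 and 8.50 CPM) than in sgKDM5D #2 (5.44, 4.63 and 4.40 CPM), by 0.80 on the log2 scale (SE 0.13, adjusted p = 2.5e-05). It was higher in sgKDM5C #4 with sgKDM5D #4 than in sgKDM5D #4 by 0.99 (SE 0.12, adjusted p = 1.8e-07), and in sgKDM5C #5 with sgKDM5D #2 (7.46, 7.71 and 8.64 CPM) than in sgKDM5D #2 by 0.71 (SE 0.13, adjusted p = 8.3e-05). In sgKDM5C #5 with sgKDM5D #4 (8.46, 7.68 and 7.22 CPM) the log2 difference from sgKDM5D #4 was 0.54 (adjusted p = 8.8e-04), under the fold limit. All libraries of the 4 double mutant populations thus held more *MT1F* than those of the sgKDM5D population of the same guide. How many of all genes separate in this way was not counted, so this is a description only. The 4 contrasts share sgKDM5D libraries in pairs, and in sgKDM5C #5 with sgKDM5D #2 the call was lost without sgKDM5D #2 replicate 3 (0.65, adjusted p = 0.0012).

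The fourth call against a sgKDM5D population was *MT2A*, lower in sgKDM5C #5 with sgKDM5D #2 than in sgKDM5D #2 (377, 497 and 467 CPM) by 0.61 on the log2 scale (SE 0.10, adjusted p = 1.7e-05). The fold limit was missed without sgKDM5D #2 replicate 2 (-0.51), sgKDM5D #2 replicate 3 (-0.58) or sgKDM5C #5 with sgKDM5D #2 replicate 3 (-0.50). *MT1X* was not called in any of these contrasts, and its log2 differences from the sgKDM5D populations ran from 0.09 to 0.54. The background of genes called in either direction was 7.10% and 23.0% for sgKDM5C #4 with sgKDM5D #2 and with sgKDM5D #4, and 10.3% and 22.4% for sgKDM5C #5 with sgKDM5D #2 and with sgKDM5D #4.

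The interaction, which is the change in a double mutant population minus those of both single mutant populations, was called for 1 of 20 member tests. For *MT2A* in sgKDM5C #5 with sgKDM5D #2 it was -0.66 on the log2 scale (SE 0.14, adjusted p = 9.9e-04), with changes of 0.05 and -0.24 in the single and -0.86 in the double mutant population. This value lay at the threshold. It was called in 6 of 35 alternatives, with log2 values from -0.77 to -0.53 and a highest adjusted p of 0.013. Leaving out any 1 of 24 of the 27 libraries ended the call, among them sgCtrl replicate 2 (-0.57, adjusted p = 0.0043) and sgKDM5C #5 with sgKDM5D #2 replicate 3 (-0.53, adjusted p = 0.0060). With DESeq2 the *MT1F* interaction of sgKDM5C #4 with sgKDM5D #4 was called as well, where edgeR gave 0.69 (SE 0.17, adjusted p = 0.0024). By edgeR it was called without sgCtrl replicate 2 (0.83, adjusted p = 3.9e-04) or without replicate 3 of that double mutant population (0.80, adjusted p = 8.4e-04). The background of the interaction was 2.10% for sgKDM5C #4 with sgKDM5D #2, 15.1% for sgKDM5C #4 with sgKDM5D #4, 5.06% for sgKDM5C #5 with sgKDM5D #2 and 14.5% for sgKDM5C #5 with sgKDM5D #4.

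Guides of the same gene were compared with each other. By edgeR 0 of 10 member comparisons were called, 2 had an unadjusted p under 0.05, and DESeq2 called 0. The largest difference between sgKDM5C #5 and sgKDM5C #4 among the members with more than 100 counts was that of *MT1F*, 0.39 on the log2 scale (95% interval 0.16 to 0.62, adjusted p = 0.023). That between sgKDM5D #4 and sgKDM5D #2 was -0.29 for *MT1E* (95% interval -0.45 to -0.13, adjusted p = 0.0043). Of all genes, 3.71% were called between the sgKDM5C guides and 20.8% between the sgKDM5D guides.

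Ratios of members within a library do not depend on library scaling. The ratio of *MT2A* to *MT1E* counts was 3.17 in sgCtrl, with libraries from 3.11 to 3.23. All libraries lay above this range in sgKDM5D #4 (3.82 to 4.01), sgKDM5C #4 (3.26 to 3.38) and sgKDM5C #5 (3.29 to 3.44). All lay below it in sgKDM5C #5 with sgKDM5D #2 (2.14 to 2.84), sgKDM5C #5 with sgKDM5D #4 (2.41 to 2.81) and sgKDM5D #2 (2.64 to 3.06), so that the populations of both sgKDM5D guides lay on opposite sides of sgCtrl. The libraries of sgKDM5C #4 with sgKDM5D #2 (2.99 to 3.30) and of sgKDM5C #4 with sgKDM5D #4 (2.99 to 3.38) overlapped the sgCtrl range. A ratio alone does not show which of the genes moved, or whether both did. In sgKDM5D #4 the log2 fold change against sgCtrl was -0.40 for *MT1E* and -0.09 for *MT2A*, neither of them called. The ratio of *MT1F* to *MT1X* counts was 1.03 in sgCtrl (libraries from 0.935 to 1.18), 1.49 in sgKDM5C #5 (1.21 to 1.92) and 1.62 in sgKDM5C #4 with sgKDM5D #4 (1.46 to 1.78). No test was run on the ratios. The sgCtrl ranges come from 3 libraries, and how often the ratios of other gene pairs separate from sgCtrl was not counted.

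**Figure D3:**
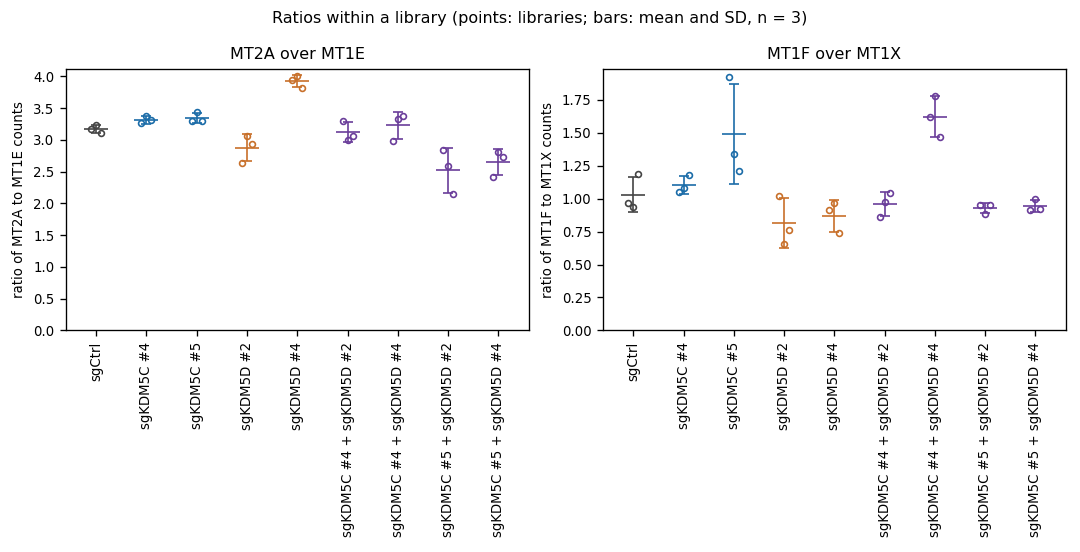
Ratios of *MT2A* to *MT1E* counts and of *MT1F* to *MT1X* counts within each library, on linear axes from 0, with the mean and SD of 3 libraries. *MT2A* over *MT1E* is highest in sgKDM5D #4 (mean 3.92) and lowest in sgKDM5C #5 with sgKDM5D #2 (mean 2.52), and *MT1F* over *MT1X* is highest in sgKDM5C #4 with sgKDM5D #4 (mean 1.62).

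Across the 9 population means of log2 CPM, members did not share 1 course. Pearson's r was 0.69 between *MT1E* and *MT2A* (Spearman's rho 0.45, and r = 0.56 without the 2 farthest populations), 0.56 between *MT1F* and *MT1X* (0.42, and r = -0.23 without them) and 0.03 between *MT1F* and *MT2A* (rho 0.10). The genes of a pair were measured in the same libraries, and these are descriptions over 9 points. The relation of *MT1F* with *MT1X* rested on 2 populations.

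*MT1L* (ENSG00000260549, 56651475 to 56652592), annotated as a transcribed pseudogene between *MT2A* and *MT1E*, was the 1 other metallothionein gene of 8 matched that passed the filter, and its population means spanned 84.7-fold. It was at 3.51, 2.81 and 3.51 CPM in sgCtrl and at 7.68, 10.4 and 9.93 CPM in sgKDM5D #2. In sgKDM5D #4 only 2, 2 and 4 counts were found, 8 in all against 254 in sgCtrl, a level 30.2-fold lower with a 95% counting interval of 15.1 to 70.6. In the fit the rise was 1.51 on the log2 scale (SE 0.16, adjusted p = 1.1e-07) and the other value -4.86 (SE 0.31, adjusted p = 5.0e-13), and both calls held in 35 of 35 alternatives. *MT1L* fell by 1.01 in sgKDM5C #4 (1.51, 1.77 and 1.53 CPM, adjusted p = 1.5e-04), a call that held in 30 of 35 alternatives. It was lost without sgCtrl replicate 1 (-0.96, adjusted p = 0.0011), sgCtrl replicate 3 (-0.95, adjusted p = 0.0014), sgKDM5C #4 replicate 1 (-0.97, adjusted p = 0.0012) or sgKDM5C #4 replicate 3 (-0.98, adjusted p = 0.0013). In sgKDM5C #5 with sgKDM5D #4 it rose by 0.76 (6.20, 6.27 and 4.21 CPM, adjusted p = 7.7e-04), a call that held in 9 of 35 alternatives and was lost on leaving out any 1 of 22 libraries, with log2 values of 0.64 to 0.81 over the 26 alternatives without the call. Both double mutant populations that carry sgKDM5D #4 had *MT1L* levels of 2.78 CPM or more in every library, against at most 0.171 CPM in sgKDM5D #4. None of its 100-base stretches recurred in another metallothionein gene. The other 7 matched genes (*MT1B*, *MT1JP*, *MT1CP*, *MT1DP*, *MT1P1*, *MT3* and *MT4*) had 0 to 4 counts per library.

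The genes that flank the cluster were read in the same way. *BBS2* is a ciliary BBSome gene whose lower coordinate lies 143 kb before that of *MT2A*. It rose in sgKDM5C #5 with sgKDM5D #2 (20.6 ± 1.7 CPM against 12.0 ± 1.5 CPM in sgCtrl, log2 fold change 0.79, SE 0.12, adjusted p = 5.3e-06). *NUP93*, which encodes a nuclear pore protein on the other side, was not called in these comparisons, with log2 fold changes from -0.08 to 0.43. In sgKDM5D #4, where *MT1L* was lowest, the log2 fold changes of *MT2A* and *MT1E* beside it were -0.09 and -0.40, and those of *BBS2* and *NUP93* -0.13 and -0.08. *DOK4*, an adaptor of receptor tyrosine kinase signalling at the far end of the window, fell there by 1.35 (SE 0.07, adjusted p = 3.8e-15). Over the 16 of 18 flanking genes tested, 6 of 128 comparisons with sgCtrl were called higher and 1 lower. The shares of all genes called were 1.89% to 10.7% higher and 1.34% to 7.44% lower, depending on the population. Among the flanking genes the higher calls were 3 of *NLRC5*, 2 of *PLLP* and that of *BBS2*. *NLRC5* and *PLLP* are named here after their values were seen.

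**Figure D4:**
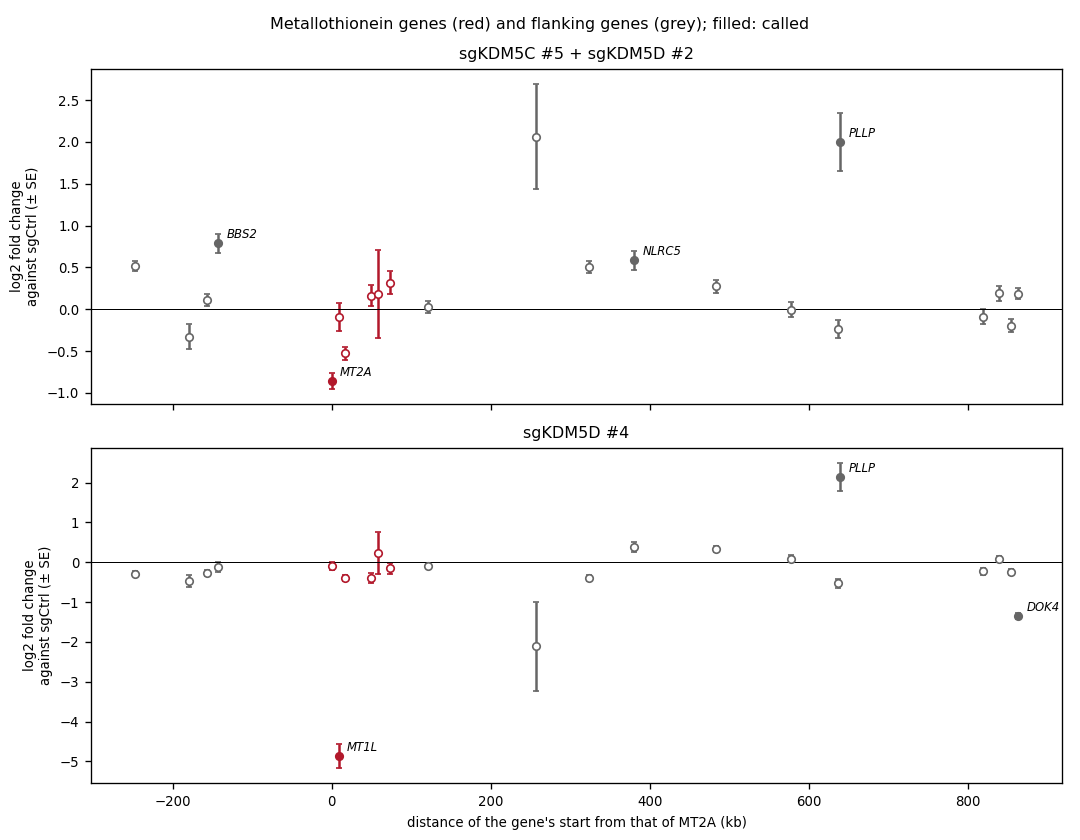
Log2 fold change against sgCtrl, with its standard error, of metallothionein genes (red) and flanking genes (grey) by the distance of their start from that of *MT2A* in kb, in sgKDM5C #5 with sgKDM5D #2 (top) and sgKDM5D #4 (bottom), on linear axes. The start is the lower coordinate of a gene, whatever its strand. Filled points are called, and *MT2A* (-0.86) in the first population and *MT1L* (-4.86) in the second are the called metallothionein genes.

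The regulators and partners of metallothioneins were described by lists. Against sgCtrl, 1.89% to 10.7% of all genes were called higher and 1.34% to 7.44% lower, depending on the population. The highest shares, 10.7% and 7.44%, were those of sgKDM5D #4. *MTF1*, which encodes the zinc sensor of the family, was at 42.8 ± 1.5 CPM in sgCtrl and 32.4 ± 1.4 CPM in sgKDM5C #5 with sgKDM5D #2 (log2 fold change -0.40, SE 0.08, adjusted p = 1.2e-04, under the fold limit). *SLC30A1*, a zinc exporter that MTF1 also controls, was at 37.3 ± 13 CPM in sgCtrl and 19.3 ± 4.9 CPM in the same double mutant population (-0.95, SE 0.24, adjusted p = 0.0019). Its libraries ran from 28.4 to 51.8 CPM in sgCtrl and from 13.8 to 23.2 CPM in that population, so the sgCtrl mean leaned on its highest library. Among *MTF1* and its other targets (3 of 4 tested), 0 of 24 comparisons with sgCtrl were called by edgeR or DESeq2, and 7 had an unadjusted p under 0.05. Between double mutant and sgKDM5D populations, 1 of 12 was called by edgeR and 2 by DESeq2, and 6 had an unadjusted p under 0.05. The edgeR call was in sgKDM5C #4 with sgKDM5D #2, where 7.10% of all genes were called. Of the zinc exporters and vesicle loaders (6 of 10 tested) 1 of 48 comparisons was called, lower, which was *SLC30A5* in sgKDM5D #4 (named after its value was seen), and of the zinc importers (11 of 14 tested) 3 of 88 were called higher. *SLC39A4*, an importer of the cell surface, rose in sgKDM5C #4 (0.80, adjusted p = 4.1e-08) and in sgKDM5C #4 with sgKDM5D #2 (0.90, adjusted p = 4.2e-09). Of the copper genes (9 of 10 tested) 3 of 72 were called higher and 2 lower, all in sgKDM5D #4, and *SCO1*, a copper chaperone of cytochrome oxidase assembly, rose there by 0.82 (adjusted p = 6.1e-08).

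The other inputs of metallothionein transcription were described in the same way, beside medians over all genes of -0.01 to 0.02. The shares of all genes called against sgCtrl were 1.89% to 10.7% higher and 1.34% to 7.44% lower, depending on the population. They were 7.92% and 4.77% in sgKDM5C #5 with sgKDM5D #2, and 10.7% and 7.44% in sgKDM5D #4. Of the 8 tested glucocorticoid genes, 9 of 64 comparisons were called higher and 3 lower, and in sgKDM5C #5 with sgKDM5D #2, 4 were higher, with a median log2 fold change of 0.53. *KLF9*, a glucocorticoid-induced transcription factor, rose there by 1.05 (SE 0.14, adjusted p = 1.1e-06) but was called lower in sgKDM5D #4. Of the 10 heat shock genes 17 of 80 comparisons were called lower and 1 higher, 7 of the lower ones in the same double mutant population, with a median of -0.80. *HSPA1A*, the inducible HSP70, fell by 3.33 in sgKDM5D #4 (1.06 against 10.9 CPM, adjusted p = 2.9e-09). Of the 12 NRF2 targets 5 of 96 comparisons were called higher and 7 lower. Their median was -0.47 in sgKDM5C #5 with sgKDM5D #2, -0.52 in sgKDM5D #4 and 0.01 in sgKDM5C #4 with sgKDM5D #4. In the last of these *ABCC2*, an organic anion exporter, rose by 1.69 (adjusted p = 8.8e-09). Of the marker lists, the kidney and ccRCC markers gave 4 calls higher and 1 lower. In sgKDM5D #4 *PAX2* was lower by 1.24 and *CDH6* (named after its call was seen) was called higher, with a list median of 0.17. The fibroblast markers gave 2 calls higher in 16 comparisons. These were *COL1A1* in sgKDM5D #4 (13.8 CPM against 4.07 CPM in sgCtrl) and *LUM* (named after its call was seen) in sgKDM5C #4 with sgKDM5D #4. In the latter population *COL1A1* was at 2.81 CPM. The part of any of these in the levels of the members was not tested.

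Among the 5 genes of 10617 whose 9 population means of log2 CPM most resembled the mean of the 5 members were *LRIF1* (Pearson's r = 0.95), *LRRC40* (0.92), *CCNI* (0.92) and *TMEM70* (0.92). The mean of the members ranged by 0.54 on the log2 scale over the populations, highest in sgKDM5C #5 and lowest in sgKDM5C #5 with sgKDM5D #4, where *MT1G* had 6 counts in all. Members had equal weight, and this low point came from *MT1G*. Against sgCtrl the log2 fold changes there were -0.25 for *MT2A*, 0.01 for *MT1E*, 0.14 for *MT1F* and 0.28 for *MT1X*. The summed level was 631 CPM there and 425 CPM in sgKDM5C #5 with sgKDM5D #2. The resemblances thus rest in part on a gene with few counts. *TMEM70* ranged by 0.74 and *CCNI* by 0.18. The r values were picked as the highest of many and are given as a description.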

How the data were processed

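RNA had been isolated with the NucleoSpin RNA Mini kit, and libraries made with the TruSeq Stranded RNA kit had been sequenced on a NovaSeq instrument as paired-end reads. According to the submitters' processing notes, the tools were Trimmomatic 0.38 and STAR 2.5.2b with build GRCh37. The counting tool, its annotation and its strand setting are not given in the sources used here. The deposited values are raw counts per Ensembl gene, made by the authors without normalization, for 57773 genes in 27 libraries of 20172482 to 43383929 counts. Counts of a handful, as for *MT1G*, limit precision, and intervals and floors cover counting error only.

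Genes with at least 120 counts summed over all libraries were kept, 17016 in all. Levels were CPM, counts scaled to library size with TMM factors. One mean per population was fitted over all 27 libraries with edgeR 4.0.16 in R 4.3.3, and contrasts were tested by the quasi-likelihood test with Benjamini-Hochberg adjustment. Alternatives were RLE factors, other filters, DESeq2 1.42.0, a replicate block, only the populations compared, a term for or removal of the 4 libraries that stood apart, another threshold, and leaving out each library. Scripts were tested on simulated data. Gene positions are those of GENCODE on GRCh37, and promoters those of RefSeq on GRCh38.p14. Of 124 genes in the lists, 119 were matched. Named genes are the members, *MT1L*, *MTF1* and *SLC30A1*, the flanking genes *BBS2* and *NUP93*, the gene of each other list with the widest range of population means (mean log2 CPM over 2), and the 5 genes whose population means correlated best with the mean of the tested members (1 of these 5 genes is not reported here). Members and lists were chosen with earlier results of these data known.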

Additional observations from a re-analysis of the deposited data

Results flagged for a closer look

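Differences in response between populations were called by edgeR's quasi-likelihood test for *MT2A* and *MT1L*. The interaction of *MT2A* was -0.66 on the log2 scale in sgKDM5C #5 with sgKDM5D #2 (adjusted p = 9.9e-04). The interaction of *MT1L* was 5.74 in sgKDM5C #4 with sgKDM5D #4, 5.26 in sgKDM5C #5 with sgKDM5D #4 and -1.97 in sgKDM5C #5 with sgKDM5D #2. Guides of the same gene differed in *MT1L* too, with a log2 difference of 1.37 between sgKDM5C #5 and sgKDM5C #4 and of -6.38 between sgKDM5D #4 and sgKDM5D #2. The values against sgKDM5D #4 rest on 8 counts of *MT1L* in that population. Groups of 3 libraries were too small for a search for outlying values.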

How the results depend on the processing

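For the log2 fold changes of the 5 members against sgCtrl, 324 of 352 values under alternatives other than leaving out a library kept their direction and side of the threshold, and 1039 of 1080 leave-one-out values did. Members called higher against sgCtrl, 2 in all, were 0 with only the populations compared, 0 without the libraries that stood apart and 0 to 2 on leaving out a library. Those called lower, 1 in all, were 8 at an adjusted p under 0.05 with no fold limit, 2 with a term for the libraries apart, 3 without them (*MT2A* and *MT1E* in sgKDM5C #5 with sgKDM5D #2 and *MT1F* in sgKDM5D #2) and 1 to 3 on leaving out a library. Against the sgKDM5C populations 1 call became 5 at the looser threshold, 3 with the term and 1 on leaving out any library. Against the sgKDM5D populations 4 calls became 11 at the looser threshold, 2 with only the populations compared and 2 to 4 on leaving out a library. The single interaction became 5 at the looser threshold, 0 with RLE factors, filterByExpr, only the populations compared or the replicate block, 2 with DESeq2 or the term, and 0 to 1 on leaving out a library. Between guides 0 calls became 2 at the looser threshold and stayed 0 on leaving out any library. Causes were not tested.

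Replicate numbers share no stated batch, and residuals of same-numbered libraries correlated between -0.735 and 0.733 with a median of -0.06, so they were not taken as pairs. With the replicate block the calls were 2 higher and 1 lower against sgCtrl, 1 against sgKDM5C and 4 against sgKDM5D populations, as without it, and the interaction of *MT2A* was -0.66 (adjusted p = 0.0019), which ended that call.

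Signs were compared for the log2 fold changes of members against sgCtrl, not for the other contrasts, and those that reversed were not called. *MT1E* in sgKDM5C #5 with sgKDM5D #4 (0.0110) was -0.0063 with RLE factors, -0.0235 without a filter, -0.0049 with filterByExpr, -0.0062 with DESeq2, -0.0083 with only the populations compared, -0.0357 with the term and -0.0773 without the libraries apart. With the term, *MT1G* was -0.0713 in sgKDM5C #4 and 0.0357 in sgKDM5C #4 with sgKDM5D #2. Without the libraries apart, *MT1G* was -0.347 in sgKDM5C #4, -0.230 in sgKDM5D #4 and -0.259 in sgKDM5C #5 with sgKDM5D #2, and *MT2A* was -0.0304 in sgKDM5C #5. On leaving out a library, *MT1E* ran from -0.129 to 0.0187 in sgKDM5C #5 and from -0.0940 to 0.0612 in sgKDM5C #5 with sgKDM5D #4, and *MT2A* from -0.0370 to 0.101 in sgKDM5C #5. *MT1G* ran from -0.344 to 0.598 in sgKDM5C #4, -0.465 to 0.479 in sgKDM5C #4 with sgKDM5D #2, -0.264 to 0.689 in sgKDM5C #5 with sgKDM5D #2, -0.735 to 0.206 in sgKDM5D #2 and -0.242 to 0.713 in sgKDM5D #4.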
